A study of Mus musculus with 24 samples.

Results

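The 10 genes described here carry fatty acids into islet cells and activate them to acyl-CoA. They were chosen by name for their place in this pathway, with earlier results of these data known, and are 10 of the 41549 genes in the table. Counts of these genes set beside shares of all genes are therefore descriptions. They comprise 5 long-chain acyl-CoA synthetases (Acsl1, Acsl3, Acsl4, Acsl5 and Acsl6), 3 proteins of fatty-acid uptake at membranes (Cd36, Slc27a1 and Slc27a4) and 2 cytosolic fatty-acid binding proteins (Fabp3 and Fabp5). All 10 passed the filter on low counts.

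mRNA was sequenced from dispersed pancreatic islet cells of wild-type C57BL/6NRj mice, males and females aged 12 to 14 weeks. The cells received 50 pmol of an antisense oligonucleotide (ASO), either a control (Ctr) or one complementary to the 5′ fragment of tRNA Glu(CTC) (αGlu). They were then cultured for 48 h with 0.5 mM palmitate (PA) or with 0.75% bovine serum albumin (BSA), the carrier, as control. The 24 libraries fell into 4 groups of 6, called Ctr BSA and Ctr PA for the control ASO and αGlu BSA and αGlu PA for the other. Each of 2 batches held 3 libraries of every group, and the labels do not say what a batch stands for. Every group received an ASO, so untransfected cells were not part of the comparison, and all cell types of the dispersed islets entered each library.

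Long-chain fatty acids reach the cytosol by diffusion and with the help of CD36 and of the fatty acid transport proteins encoded by the Slc27 genes. Acyl-CoA synthetases then couple them to coenzyme A, which traps them in the cell and makes them available for oxidation, for glycerolipid synthesis or for membrane remodelling. The fatty-acid binding proteins keep free fatty acids soluble on the way. In beta cells palmitate is widely used to model lipotoxicity, and acyl-CoA formation is the step that commits it to its metabolic fates.

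The αGlu ASO is shown since it separates the groups, with its target, where capitals mark bases 2 to 21, which are complementary to the ASO.
αGlu ASO: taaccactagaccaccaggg
tRNA fragment target: tCCCTGGTGGTCTAGTGGTTA

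Promoter windows of RefSeq (GRCm38.p6, 250 bases before to 50 after a start site, written in the direction of transcription) were found for 9 of the 10 genes, and Fabp5 had none. Those of Fabp3 and Acsl4 are shown because these genes had the largest rises with PA. Those of Acsl6 and Cd36 are shown because they alone among the 9 genes held AGGTCA, the half-site bound by many nuclear receptors. Of the 3 windows of Acsl6 the first is shown. Capitals mark this half-site, the GC box motif GGGCGG, the box named for its letters CCAAT and the TATA box motif TATAAA, on either strand.
Fabp3, chr4:130308488-130308787, plus strand: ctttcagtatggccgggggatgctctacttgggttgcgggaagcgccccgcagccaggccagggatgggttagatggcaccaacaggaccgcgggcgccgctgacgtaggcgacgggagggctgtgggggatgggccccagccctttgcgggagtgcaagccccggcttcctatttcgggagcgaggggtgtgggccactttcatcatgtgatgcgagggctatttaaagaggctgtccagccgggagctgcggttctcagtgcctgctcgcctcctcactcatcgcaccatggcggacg
Acsl4, chrX:142390486-142390785, minus strand: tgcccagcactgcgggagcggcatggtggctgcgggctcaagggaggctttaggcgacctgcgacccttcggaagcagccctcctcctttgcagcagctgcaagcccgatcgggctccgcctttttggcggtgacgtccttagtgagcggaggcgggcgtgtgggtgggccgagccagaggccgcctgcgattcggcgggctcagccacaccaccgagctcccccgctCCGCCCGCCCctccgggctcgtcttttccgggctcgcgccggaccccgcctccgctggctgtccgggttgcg
Acsl6, chr11:54303574-54303873, plus strand: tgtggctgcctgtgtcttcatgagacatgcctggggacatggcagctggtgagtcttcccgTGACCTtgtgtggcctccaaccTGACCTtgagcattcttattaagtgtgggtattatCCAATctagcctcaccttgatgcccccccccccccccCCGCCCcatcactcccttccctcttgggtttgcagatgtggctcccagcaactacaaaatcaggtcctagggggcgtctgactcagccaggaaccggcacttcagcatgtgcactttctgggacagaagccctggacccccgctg
Cd36, chr5:17835847-17836146, minus strand: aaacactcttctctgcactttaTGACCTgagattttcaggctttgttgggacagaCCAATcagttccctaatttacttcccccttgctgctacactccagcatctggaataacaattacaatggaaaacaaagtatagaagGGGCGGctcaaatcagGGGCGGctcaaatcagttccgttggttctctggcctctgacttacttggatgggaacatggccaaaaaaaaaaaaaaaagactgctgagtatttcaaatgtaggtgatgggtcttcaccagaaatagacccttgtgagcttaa

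Fabp3 held none of these motifs in its window. Acsl4 held 2 overlapping GGGCGG on the minus strand, which begin 22 and 18 bases before the start site. AGGTCA began 189 and 167 bases before the start site of Acsl6 and 228 bases before that of Cd36. Over 32851 promoters of the same length, 16.3% held AGGTCA, 35.7% GGGCGG, 37.4% CCAAT and 13.6% TATAAA. Such matches describe letters in these windows and are not measured binding sites.

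Total counts ran from 18214719 to 35001979 per library. The beta-cell markers, Ins1 and Ins2 among them, summed to between 84084 and 152138 CPM (counts scaled to library size) in each library. Ctr BSA library S1, which had the fewest counts, stood at 134035 CPM of these markers, against 84084 to 99108 CPM in the other 11 libraries of batch 1. The libraries were not all alike in their other cells. The 14 macrophage markers summed to 403 CPM in Ctr BSA library S21 and to between 84.3 and 185 CPM in the other 23 libraries. All 7 acinar markers were lower in batch 2. Values without S21 are given beside those of Cd36, Fabp5 and the macrophage markers.

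Levels of different genes were compared on the TPM scale, which divides by gene length. In Ctr BSA cells Acsl5, a synthetase of mitochondrial and ER membranes, had the highest level at 51.8 ± 8.71 TPM (SD, n = 6). Acsl4, which prefers arachidonate and other polyunsaturated fatty acids, followed at 30.6 ± 7.22 TPM, and Slc27a4, the fatty acid transport protein FATP4, at 22.8 ± 3.6 TPM. Acsl3, a synthetase of the ER and of lipid droplets, stood at 14.5 ± 3.12 TPM.

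Over all 6 libraries much of that order was not resolved. The ranges of Acsl5 and Acsl4, of Acsl4 and Slc27a4 and of Acsl3 and Cd36 overlapped, although within a library the first was the higher in 6, 5 and 4 of 6 libraries. The overlaps of Acsl5 with Acsl4 and of Acsl4 with Slc27a4 rested on library S1 (Acsl5 35.7 TPM, Acsl4 17.1 TPM). In the other Ctr BSA libraries Acsl5 was at least 50.5 TPM and Acsl4 at most 38.4 TPM. There Acsl4 was at least 29.6 TPM and Slc27a4 at most 27.3 TPM. Cd36 (10.3 ± 6.97 TPM), Fabp3 (9.34 ± 2.75 TPM), Fabp5 (9.26 ± 3.11 TPM) and Slc27a1 (9.17 ± 0.475 TPM) overlapped in their ranges, each with the next. Acsl6 (5.13 ± 0.575 TPM) and Acsl1 (4.30 ± 0.523 TPM) came last and overlapped with each other, although Acsl6 was above Acsl1 in 6 of 6 libraries. Ranges of Slc27a4 and Acsl3, and those of Slc27a1 and Acsl6, did not overlap. In Ctr PA cells the levels per length led again with Acsl5 (68.0 ± 3.71 TPM), Acsl4 (50.2 ± 7.18 TPM) and Slc27a4 (24.4 ± 2.34 TPM), Fabp3 followed at 21.2 ± 3.26 TPM, and Fabp5 was last at 4.72 ± 2.15 TPM.

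The order below Acsl5 depended on the length used. The TPM values divide by the length of all annotated exons of a gene. Per length of the principal transcript, on the same TPM scale, Fabp5 was second in Ctr BSA cells at 33.5 ± 11.2 (SD, n = 6), with a range that overlapped that of Acsl4, Acsl6 stood at 19.6 ± 2.2 and Acsl1 at 11.6 ± 1.41, while Fabp3 was last at 9.34 ± 2.75. In Ctr PA cells the first 3 were again Acsl5, Acsl4 and Slc27a4, Fabp5 stood at 17.1 ± 7.77 and Cd36 was last at 8.09 ± 2.96.

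Acsl5 made up 48.8% ± 2.22 of the summed TPM of the 5 synthetases in Ctr BSA cells and 45.4% ± 2.58 in Ctr PA cells (SD, n = 6). The share of Acsl4 was 28.5% ± 3.11 in Ctr BSA and 33.3% ± 2.80 in Ctr PA. In αGlu cells it was 29.0% ± 1.16 in BSA and 31.2% ± 1.33 in PA. These shares are descriptions without a test. All annotated exons sum to 10483 bases for Acsl1 and 9914 for Acsl6, against 3897 and 2594 bases in their principal transcripts. Per principal transcript length, the share of Acsl6 in Ctr BSA cells was 14.4% in place of 4.93% and that of Acsl1 8.43% in place of 4.08%, while Acsl5 (43.0%) and Acsl4 (22.5%) stayed the largest.

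**Figure D1:**
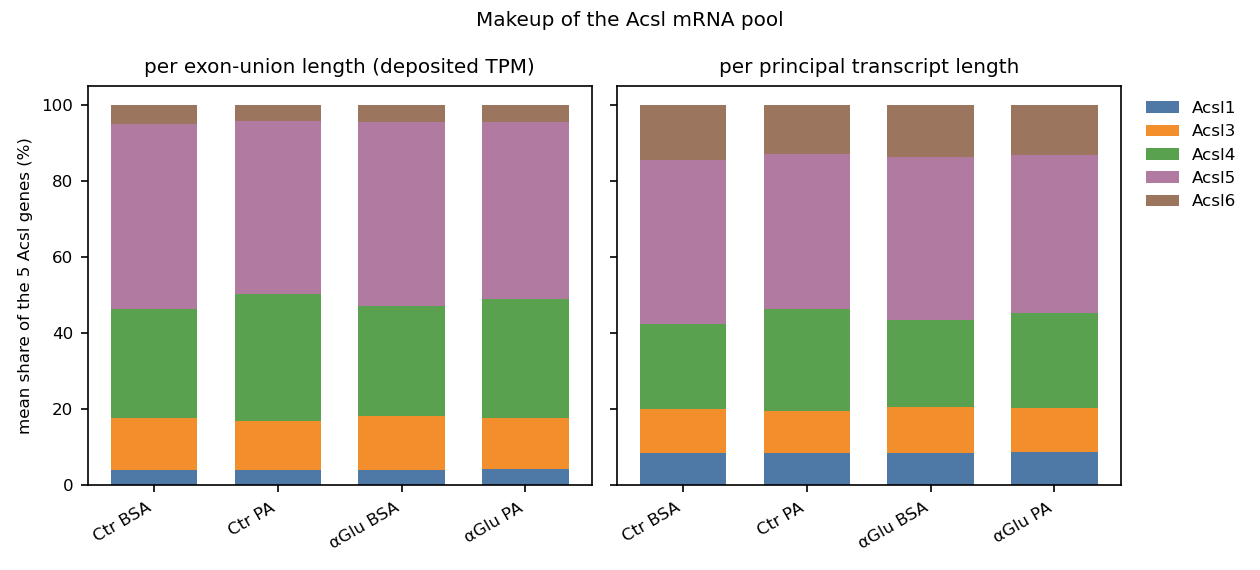
Mean share (%) of each of the 5 Acsl genes in their summed level, by group (n = 6 libraries each), with levels per exon-union length on the left and per principal transcript length on the right. Acsl5 and Acsl4 form the largest segments in every group on both scales, and the segments of Acsl1 and Acsl6 are larger on the right.

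PA against BSA in Ctr cells asks how exposure to palmitate alters the genes that take up and activate it. PA raised all 5 synthetases and Fabp3, and lowered Fabp5 and Slc27a1, while Cd36 and Slc27a4 did not pass the test (edgeR quasi-likelihood test, adjusted p below 0.05). The largest rise was that of Fabp3, at 2.22-fold, and the rises of the synthetases ran from 1.20-fold to 1.60-fold. Of the 10 genes 6 were raised, against 15.5% of all 15916 genes tested, and 2 were lowered, against 14.5%. The median log2 fold change was 0.30 over the 10 genes and 0.01 over all genes.

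**Figure D2:**
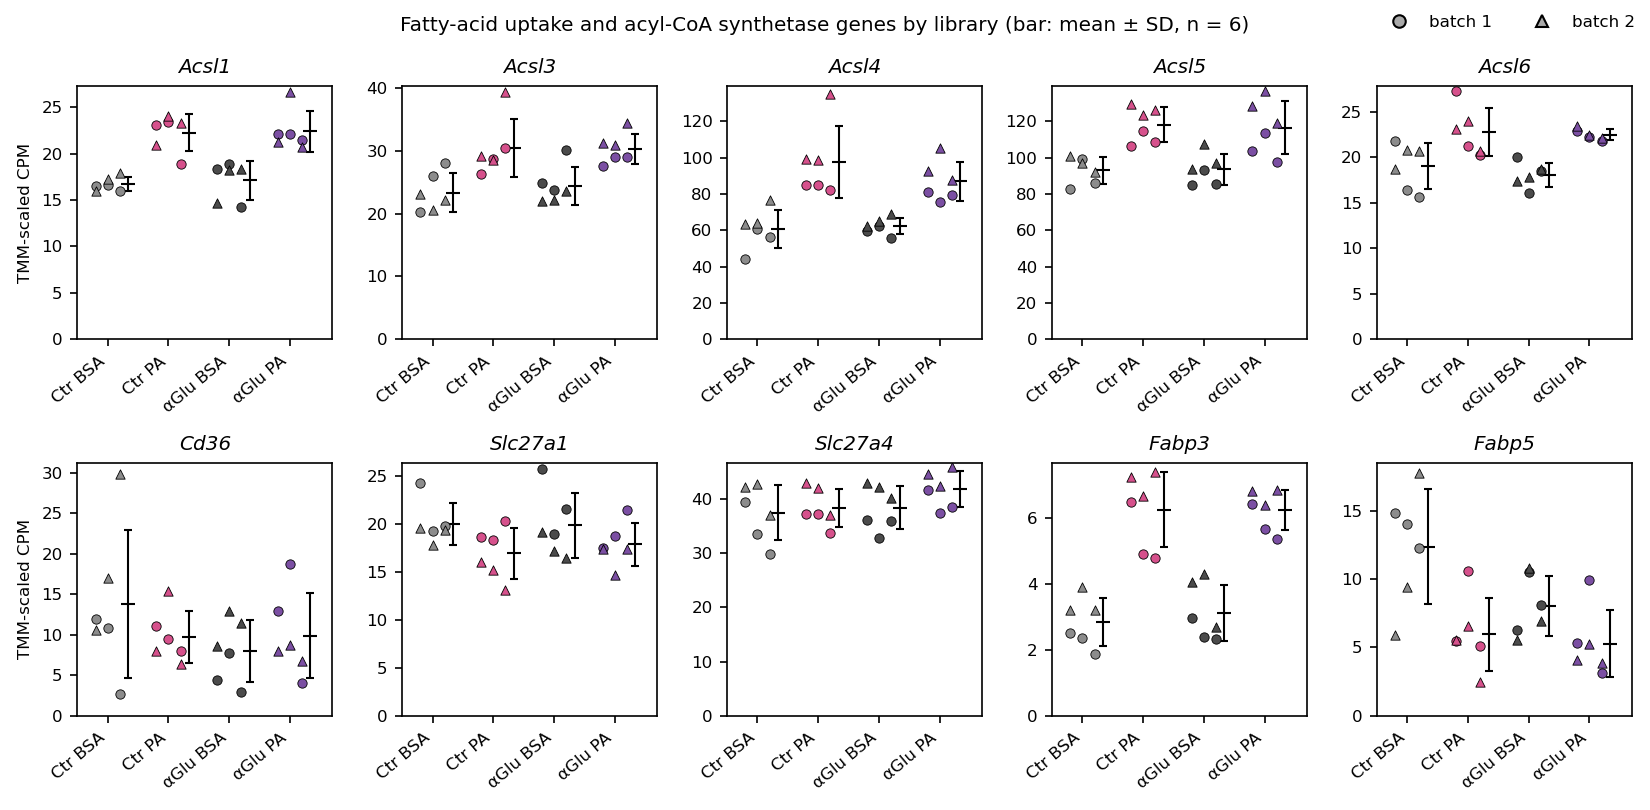
TMM-scaled CPM (linear axes from 0) of the 10 genes in each library, by group, with circles for batch 1, triangles for batch 2, and a black bar for mean ± SD (n = 6). Acsl1, Acsl4, Acsl5 and Fabp3 lie higher in every Ctr PA library than in any Ctr BSA library, while Cd36 and Fabp5 spread widely within groups.

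Acsl4 (chrX:142317993-142390535, minus strand, GRCm38) lay between 44.1 and 76.7 CPM in Ctr BSA (median 61.9) and between 82 and 134.9 CPM in Ctr PA (median 91.9). The groups did not overlap. Its log2 fold change was 0.68 ± 0.08 (SE), with an adjusted p of 1.21e-06. Without Ctr PA library S23, the highest, it was 0.59.

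Acsl1 (chr8:46471037-46536051, plus strand), which in other tissues serves both oxidation and triglyceride synthesis, lay between 16 and 17.9 CPM in Ctr BSA (median 16.6) and between 18.9 and 24.1 CPM in Ctr PA (median 23.2). Again every Ctr PA library was above every Ctr BSA library, and the log2 fold change was 0.42 ± 0.08 (SE), adjusted p = 3.19e-04. Acsl5 (chr19:55251938-55297720, plus strand) showed the same separation, from 83.0 to 100.9 CPM in Ctr BSA (median 94.6) against 106.3 to 129.6 CPM in Ctr PA (median 119.1). Its log2 fold change was 0.34 ± 0.05 (SE), adjusted p = 3.61e-05. Acsl5 shares 404 exon bases with Zdhhc6 on the other strand, whose own log2 fold change was 0.18.

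Acsl3 (chr1:78657825-78707743, plus strand) lay between 20.2 and 28.0 CPM in Ctr BSA (median 22.6) and between 26.3 and 39.3 CPM in Ctr PA (median 28.9). The groups overlapped, with 5 of 6 Ctr PA libraries above every Ctr BSA library. The log2 fold change was 0.38 ± 0.10 (SE), adjusted p = 0.0044, but it was 0.19 in batch 1 alone (adjusted p = 0.342) and 0.56 in batch 2 alone. Acsl3 shares 244 exon bases with Utp14b on the same strand, so reads there could be counted for either, and Utp14b also rose, with a log2 fold change of 0.45.

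Acsl6 (chr11:54303798-54364756, plus strand), a synthetase best known from brain, lay between 15.7 and 21.8 CPM in Ctr BSA (median 19.7) and between 20.2 and 27.3 CPM in Ctr PA (median 22.2). While 3 of 6 Ctr PA libraries were above every Ctr BSA library, the other 3 were not. Its log2 fold change was 0.27 ± 0.08 (SE), adjusted p = 0.0153. The call was lost without Ctr PA library S3 (log2 fold change 0.20, adjusted p = 0.0549), in a fit of these 2 groups alone (adjusted p = 0.0786) and in each batch alone (adjusted p = 0.133 and 0.213).

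Fabp3 (chr4:130308595-130315463, plus strand), the heart-type binding protein, lay between 1.86 and 3.91 CPM in Ctr BSA (median 2.86) and between 4.78 and 7.41 CPM in Ctr PA (median 6.58). The groups did not overlap, and the log2 fold change was 1.15 ± 0.13 (SE), adjusted p = 5.62e-07. Counts were low, from 39 to 91 reads per library in Ctr BSA and from 120 to 207 in Ctr PA. Fabp3 shares 81 exon bases with Zcchc17 on the other strand, which had more reads, and the sources used here do not say whether counting used strand. The log2 fold change of Zcchc17 was -0.03 (adjusted p = 0.799).

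Fabp5 (chr3:10012548-10016607, plus strand), the epidermal-type binding protein, which macrophages also express, went the other way. It lay between 5.92 and 17.8 CPM in Ctr BSA (median 13.1) and between 2.47 and 10.6 CPM in Ctr PA (median 5.48), with 4 of 6 Ctr PA libraries below every Ctr BSA library. The log2 fold change was -1.07 ± 0.28 (SE), adjusted p = 0.00524. It was -0.86 without Ctr BSA library S21, with the call kept, and in each batch alone the call was lost at -0.97 (adjusted p = 0.102) and -1.19 (adjusted p = 0.0742).

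Of the uptake proteins, Slc27a1 (chr8:71568882-71587302, plus strand), the transport protein FATP1 of muscle and fat, lay between 17.8 and 24.3 CPM in Ctr BSA (median 19.5) and between 13.1 and 20.3 CPM in Ctr PA (median 17.2). The groups overlapped, and the log2 fold change was -0.25 ± 0.08 (SE), adjusted p = 0.0254. This call was lost in 7 of 33 refits. Among them were those without Ctr BSA library S1, S13 or S21 or Ctr PA library S23 (adjusted p = 0.0598, 0.0601, 0.0545 and 0.0639), without the batch term (adjusted p = 0.165) and in batch 1 alone (adjusted p = 0.509).

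Slc27a4 (chr2:29802634-29817522, plus strand) lay between 29.8 and 42.8 CPM in Ctr BSA and between 33.7 and 43.0 CPM in Ctr PA, with a log2 fold change of 0.04 and a 95% interval of -0.09 to 0.16 (adjusted p = 0.669). The ranges of both groups overlapped over most of their width.

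Cd36 (chr5:17781690-17888801, minus strand), a scavenger receptor that macrophages, endothelial cells and adipocytes also carry, had the largest coefficient of variation of the 10 genes in Ctr BSA, at 65.9%, whereas in Ctr PA that of Fabp5 (44.5%) was above that of Cd36 (33.0%). It lay between 2.73 and 29.9 CPM in Ctr BSA (median 11.4) and between 6.37 and 15.4 CPM in Ctr PA (median 8.73), so that all Ctr PA libraries fell inside the Ctr BSA range. Its log2 fold change was -0.44 with an interval of -1.3 to 0.37 (adjusted p = 0.423). It was -0.13 without Ctr BSA library S21 and -0.67 without S9, and 0.16 in batch 1 alone against -0.96 in batch 2 alone.

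**Figure D3:**
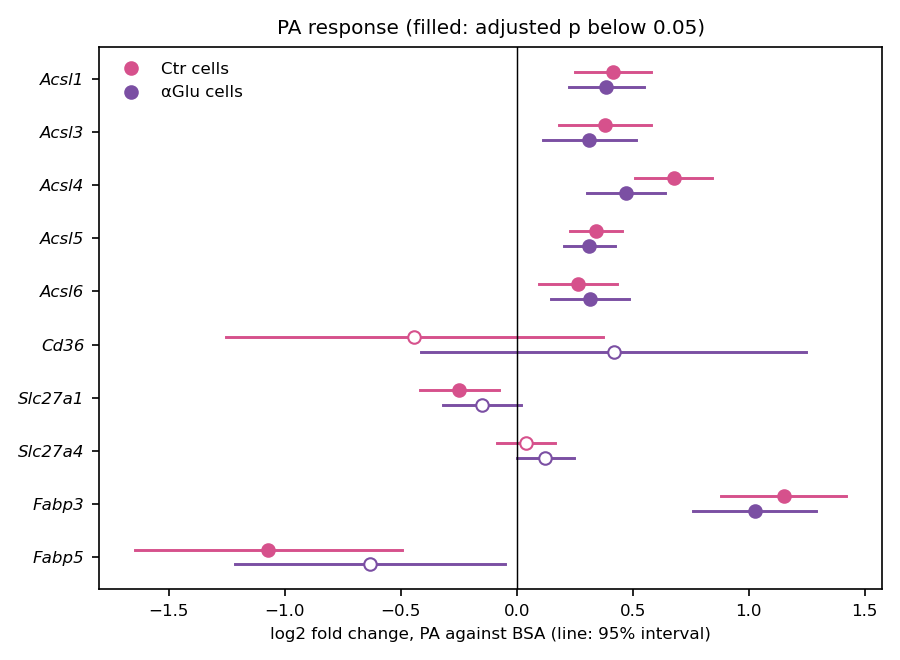
Log2 fold change of PA against BSA with its 95% interval for the 10 genes, in Ctr cells (pink) and αGlu cells (purple), filled where the adjusted p was below 0.05. The 5 synthetases and Fabp3 lie right of 0 with filled points in both cell groups, and the intervals of Cd36 are the widest.

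Markers of other cells moved in the same comparison. Of the 14 macrophage markers 10 were lowered in Ctr PA against Ctr BSA, Lyz2 by 3.46 on the log2 scale among them. The median log2 fold change of the 14 was -2.17. Without S21, 6 of 14 were lowered, Lyz2 by 2.69, the median was -1.47, and 2 of 14 lay above 0. Their sum ran from 86.9 to 403 CPM in Ctr BSA and from 87.6 to 133 CPM in Ctr PA. Of the 7 fibroblast and stellate markers tested 6 were lowered, with sums from 134 to 563 CPM in Ctr BSA and from 11.2 to 63.1 CPM in Ctr PA, and without S21 4 of 7 were lowered. Of the 7 acinar markers 5 were lowered (median log2 fold change -1.09), with sums from 392 to 19628 CPM in Ctr BSA and from 199 to 7699 CPM in Ctr PA. Of the delta and PP cell markers 2 of 4 were lowered, and of the ductal markers 2 of 7. Of the 10 endothelial markers 0 passed, but only 1 lay above 0 (median log2 fold change -0.60). Of 2 adipocyte markers tested 1 was lowered (median -0.79), at sums of only 0.566 to 1.79 CPM in Ctr BSA. In bulk libraries fewer cells of a type and less RNA per cell cannot be told apart, and the part of these cells in the values of Cd36, Fabp5 and the other genes was not tested. S21, the library with most macrophage marker signal, was also the highest Ctr BSA library for Cd36 and for Fabp5.

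**Figure D4:**
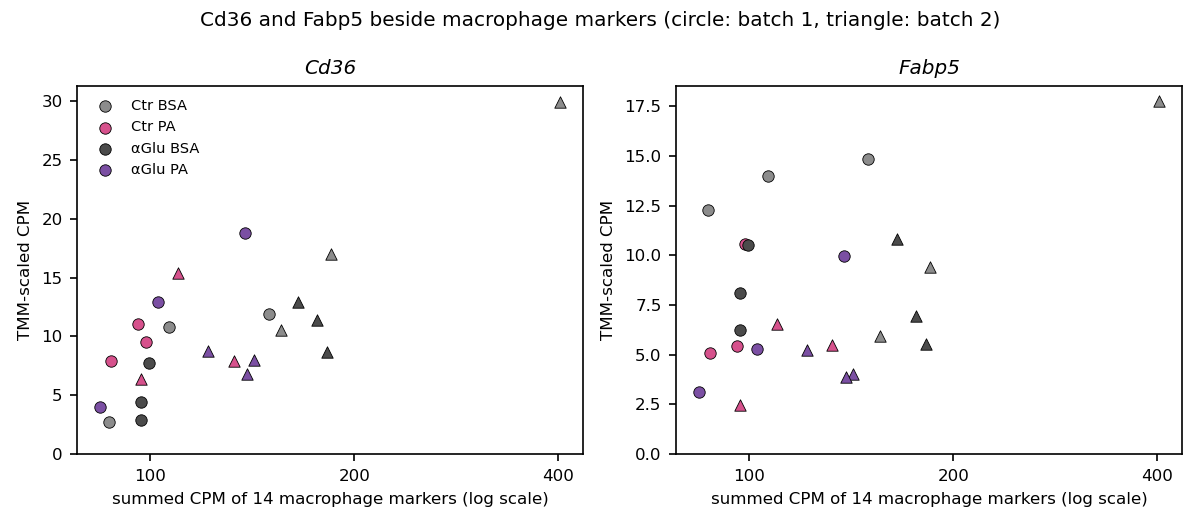
TMM-scaled CPM of Cd36 (left) and Fabp5 (right) in each of the 24 libraries against the summed CPM of 14 macrophage markers (log scale), coloured by group, with circles for batch 1 and triangles for batch 2. One Ctr BSA library stands alone at 403 CPM of marker signal and has the highest Cd36 (29.9 CPM) and Fabp5 (17.8 CPM).

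The same exposure in αGlu cells used other libraries, but the study states that the groups of a replicate came from the same animal. The αGlu libraries are thus not a repeat in separate animals. PA raised all 5 synthetases and Fabp3 there as well and lowered none of the 10 genes. Of the 10 genes 6 were raised, against 14.4% of all genes tested, and 0 were lowered, against 14.2%. The median log2 fold change was 0.31 over the 10 genes and 0.01 over all genes.

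Acsl4 lay between 55.9 and 68.9 CPM in αGlu BSA (median 62.4) and between 75.7 and 105.3 CPM in αGlu PA (median 84.1). Its groups did not overlap, and the log2 fold change was 0.47 ± 0.08 (SE), adjusted p = 1.02e-04. Fabp3 lay between 2.34 and 4.29 CPM in αGlu BSA (median 2.82) and between 5.38 and 6.85 CPM in αGlu PA (median 6.41). That is again a full separation, with a log2 fold change of 1.03 ± 0.13 (SE) and an adjusted p of 2.42e-06.

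Acsl1 and Acsl6 were also separated between αGlu BSA and αGlu PA. Acsl1 rose by 0.39 on the log2 scale (adjusted p = 6.35e-04). Acsl6 rose by 0.32 (adjusted p = 0.00472) and lay between 21.8 and 23.5 CPM in αGlu PA. Acsl5 (0.31, adjusted p = 9.89e-05) and Acsl3 (0.31, adjusted p = 0.0171) rose with overlapping groups. In batch 1 alone the calls of Acsl1, Acsl3, Acsl5 and Acsl6 were lost (adjusted p from 0.0683 to 0.615), with log2 fold changes from 0.11 to 0.35. In batch 2 alone these calls were kept (adjusted p from 0.00528 to 0.033).

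Fabp5 lay between 5.52 and 10.8 CPM in αGlu BSA (median 7.53) and between 3.12 and 9.96 CPM in αGlu PA (median 4.63), with 5 of 6 αGlu PA libraries below every αGlu BSA library. The log2 fold change was -0.63 ± 0.28 (SE), adjusted p = 0.0962, and without αGlu PA library S8, the highest, it was -0.87 and passed (adjusted p = 0.0248). Slc27a1 (-0.15, adjusted p = 0.183), Slc27a4 (0.12, adjusted p = 0.129) and Cd36 (0.42, adjusted p = 0.473) did not pass. Cd36 differed in sign between batches, at 1.23 in batch 1 alone and -0.48 in batch 2 alone, and was 0.07 without S8. Of the macrophage markers 1 of 14 was lowered in αGlu cells, with sums from 96.8 to 182 CPM in BSA and from 84.3 to 142 CPM in PA. Of the fibroblast and stellate markers 4 of 7 were lowered there (median log2 fold change -2.27), and of the acinar markers 5 of 7 (median -0.98). Their part in the values of the 10 genes was not tested.

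Genes were also counted by whether their groups overlapped. In Ctr cells 4 of the 10 genes were higher in every PA library than in any BSA library, against 2.97% of all genes, and 0 were lower, against 2.86%. In αGlu cells 4 were higher, against 4.17%, and 0 lower, against 3.95%. At a fold above 2 with an unadjusted p below 0.05, the 10 genes held 2 calls in Ctr cells, Fabp3 and Fabp5, against 5.91% of all genes, and 1 in αGlu cells, Fabp3, against 5.57%.

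αGlu against Ctr asks whether the ASO to the tRNA fragment alters these genes. None of the 10 passed in BSA or in PA, and edgeR called 0% of all genes in either comparison. In edgeR an unadjusted p below 0.05 was reached by 461 genes in BSA, 1 of the 10 among them, and by 538 in PA, 0 of the 10 among them. DESeq2 called 8 and 30 genes at an adjusted p below 0.05, none of them among the 10. That gene was Fabp5 in BSA, with a log2 fold change of -0.61 and a 95% interval of -1.18 to -0.05 (adjusted p = 1). It was -0.39 without Ctr BSA library S21.

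Cd36 was -0.79 (interval -1.60 to 0.03) in BSA and 0.07 in PA, and -0.45 in BSA without S21. Beside these values of Fabp5 and Cd36 in BSA, 1 of 14 macrophage markers had a log2 fold change above 0 (median -0.85), and without S21 2 of 14 did (median -0.20). Under PA all 14 markers lay above 0 (median 0.73, or 0.69 without S21), beside 0.07 for Cd36 and -0.18 for Fabp5. None of the markers passed in BSA or in PA, and their part was not tested. The synthetases were bounded more tightly. Acsl5 was 0.00 in BSA (interval -0.11 to 0.12) and -0.02 in PA (interval -0.13 to 0.09). Acsl4 was -0.16 in PA (interval -0.32 to 0.01), and -0.08 without Ctr PA library S23.

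The difference between the PA responses of αGlu and Ctr cells passed for none of the 10 genes, with 0% of all genes called by edgeR. At an unadjusted p below 0.05 edgeR called 332 genes, none of the 10 among them, and DESeq2 called 0 genes at an adjusted p below 0.05. Acsl4 differed by -0.20 (interval -0.44 to 0.03), and by -0.12 without Ctr PA library S23. Fabp5 differed by 0.44 (interval -0.38 to 1.25) and Cd36 by 0.86 (interval -0.29 to 2.01). Without S21 they were 0.22 and 0.51. All 14 macrophage markers lay above 0 in this difference (median 1.84, or 1.04 without S21), none passed, and their part was not tested. So the loss of the Fabp5 and Slc27a1 calls in αGlu cells was not shown to be a difference in response. For Slc27a1 the difference was 0.10 (interval -0.14 to 0.34).

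Batch was a term of each fit. Of the 10 genes 5 passed for it and 5 did not, which is near the share over all genes, 8197 of 15916. Fabp3 was higher in batch 2 by 0.43 on the log2 scale, Acsl4 by 0.29, Slc27a4 by 0.21 and Acsl5 by 0.20, and Slc27a1 fell by 0.27. That is 4 raised genes against 26.1% of all genes and 1 lowered against 25.4%. All 10 beta-cell markers were also higher in batch 2, and their part in these values was not tested.

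The neighbouring steps of the pathway were read from lists of other genes in Ctr PA against Ctr BSA. These lists were also chosen with earlier results of these data known, so their counts are descriptions. Of all genes tested 15.5% were raised and 14.5% lowered there. The oxidation list had 9 of 12 genes raised and 0 lowered, with a median log2 fold change of 0.50 against 0.01 over all genes. Cpt1a, the carnitine palmitoyltransferase that admits acyl groups to mitochondria, rose by 2.18 on the log2 scale (adjusted p = 8.72e-16). Slc25a20, the carnitine-acylcarnitine carrier, rose by 1.45 and Acadvl, the very-long-chain dehydrogenase, by 0.86. In αGlu cells 10 of 12 were raised, against 14.4% of all genes, and 0 lowered, against 14.2%.

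The glycerolipid list had 6 of 15 genes raised, against 15.5% of all genes, and 3 lowered, against 14.5%, with a median log2 fold change of 0.05. Plin2, a lipid droplet coat protein, rose by 1.42, Lpcat3, which puts polyunsaturated acyl chains into phospholipids, by 0.96 and Dgat2, the last step of triglyceride synthesis, by 0.76. Lpcat2 fell by 1.19, Lpcat1 by 0.32 and Gpam, the mitochondrial glycerol-phosphate acyltransferase, by 0.23.

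Of the 12 genes of lipoprotein and lysolipid supply 11 were tested, with 3 raised, against 15.5% of all genes, and 3 lowered, against 14.5%, and a median log2 fold change of 0.12. Counts this small are a description of these genes. Lpl, lipoprotein lipase, rose by 0.71, Lmf1, which matures it, by 0.35 and Vldlr, a lipoprotein receptor, by 0.33. Lipg, endothelial lipase, fell by 3.56, Cav1, the coat protein of caveolae, by 1.78 and Lrp1, an endocytic receptor, by 1.17. These fell beside the fibroblast and stellate markers counted above, and the part of those cells was not tested.

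Only 8 of 18 other acyl-CoA synthetases had enough counts. Acsbg1 rose by 0.95, Acsf3, a mitochondrial malonyl-CoA synthetase, by 0.36 and Acss2, the cytosolic acetyl-CoA synthetase, by 0.29, while Slc27a3 fell by 0.43 and Aacs, the acetoacetyl-CoA synthetase, by 0.21. Of 16 other binding proteins 8 were tested, with 4 raised and 0 lowered. Dbi, the acyl-CoA binding protein, rose by 0.41, Acbd5, its relative on peroxisomes, by 0.23, Got2, also described as a plasma membrane fatty-acid binding protein, by 0.21 and Scp2, a sterol carrier, by 0.18.

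**Figure D5:**
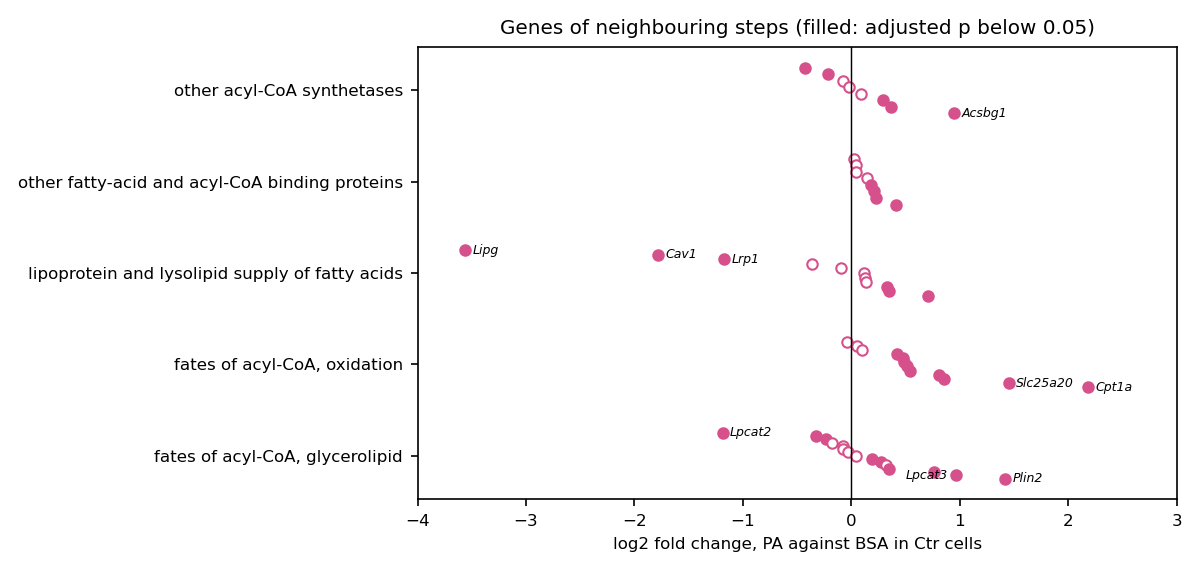
Log2 fold change of PA against BSA in Ctr cells for genes of 5 lists of neighbouring steps, 1 point per tested gene, filled where the adjusted p was below 0.05, with names at absolute values above 0.9. The oxidation list lies mostly right of 0, led by Cpt1a at 2.18, and Lipg at -3.56 lies farthest left.

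The genes whose log2 CPM varied most like each of the 10 over the 24 libraries, after subtraction of batch means, were also read. For Acsl3 they included Hmgcs1 (r = 0.927) and Stard4 (r = 0.918), genes of cholesterol synthesis and transport. For Acsl5 they were Igdcc4 (r = 0.951), Elovl6 (r = 0.949) and App (r = 0.948). For Fabp5 they were Sh3bgrl3 (r = 0.888), Ctss (r = 0.871) and Lyz2 (r = 0.87), of which Lyz2 is a macrophage marker. For Cd36 they were Mmp12 (r = 0.891), Ly9 (r = 0.835) and Rgs1 (r = 0.817). These are descriptions over libraries that share the PA contrast, so that any genes moved by PA correlate.

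The others had as nearest genes Ptprg, Lyve1 and Rassf4 (Acsl1, r from 0.916 to 0.919) and Trim44, Tcea1 and Serp1 (Acsl4, r from 0.973 to 0.977), and those of Acsl6 included Gch1 (r = 0.898). Fabp3 had Hpgds, Zfp92 and Sv2a (r from 0.955 to 0.967). Slc27a1 had Tnk2, Mapk15 and Fbrs (r from 0.858 to 0.872) and Slc27a4 had Tor2a, Pigyl and Tmed4 (r from 0.851 to 0.887).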

How the data were processed

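The authors prepared stranded mRNA libraries and annotated and normalized the reads in a QIAGEN analysis portal, on GRCm38 per the labels. The deposited table gives raw counts of reads on exons per gene, and per the file headers also TPM, RPKM and CPM values. The sources used here name no aligner, no annotation and no strand setting for the counting. Empty cells were read as 0, and 1 line without a gene held 0 counts. The deposited TPM was used to compare levels between genes, and the counts for all tests.

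Counts were scaled by TMM and fitted with the quasi-likelihood model of edgeR 4.0.16 (R 4.3.3) with terms for group and batch over all 24 libraries and 15916 genes (filterByExpr, minimum count 10). P-values were adjusted by Benjamini-Hochberg and called below 0.05. CPM values in the text are TMM-scaled. The labels tie no library to an animal, so p-values measure the spread between these libraries. The procedure was tested on simulated counts with known changes in Ctr PA. The simulation held no batch effect and no libraries from a shared animal, so it does not test the fit for these features. Alternatives were DESeq2 1.42.0, other scaling and filters, no batch term, each batch alone, 2 groups alone, a fold threshold and each library left out. Library totals in place of TMM and other gene lengths were chosen after seeing the data.

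Gene positions, lengths and overlaps came from GENCODE vM21 (GRCm38), near-identical transcripts from blastn 2.17.0, and promoters from RefSeq. The processed pseudogenes of Fabp3 and Fabp5 found this way had 0 counts. Named genes were all 10 members, for each list up to 3 genes raised and 3 lowered of smallest p in Ctr cells, and 3 most similar genes per member, some of which are not reported here. Scp2 and the genes overlapping a member were added after their values were seen. The members and lists were chosen with earlier results of these data known.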

Additional observations from a re-analysis of the deposited data

Results flagged for a closer look

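In 6 of the 40 sets of 6 libraries (10 genes in 4 groups), 1 library stood apart from the other 5 by Dixon's test at the 95% level, where chance alone gives about 1 in 20. In Ctr PA library S23 was highest for Acsl4, at 134.9 CPM against 82 to 99.0 in the others, and for Acsl3, at 39.3 CPM against 26.3 to 30.4. In αGlu PA library S20 was highest for Acsl1, at 26.7 CPM against 20.7 to 22.2, and library S8 for Fabp5, at 9.96 CPM against 3.12 to 5.28. In αGlu BSA library S10 was highest for Acsl3, at 30.1 CPM against 22 to 24.9. In Ctr BSA library S1 was highest for Slc27a1, at 24.3 CPM against 17.8 to 19.8.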

How the results depend on the processing

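Of 998 refits of single genes, 974 kept their direction and their side of the threshold, 18 lost a call, 3 gained one and 3 changed sign. Most of these refits left out a single library and so shared nearly all their data. Outside the PA comparisons only genes with an unadjusted edgeR p below 0.1 entered. The 66, 66 and 32 refits of αGlu against Ctr in BSA, in PA and of the difference between responses had no call to lose. The total is therefore a weak measure of stability. In batch 1 alone the number of genes called fell from 8 to 4 of the 10 in Ctr cells. In αGlu cells it fell from 6 to 2. In batch 2 alone, which held as many libraries, Acsl6 and Fabp5 lost their calls in Ctr cells (adjusted p = 0.213 and 0.0742). The 6 calls in αGlu cells were kept there (adjusted p from 0.00528 to 0.033). Why the batches differed was not tested. At a fold above 2 the number called was 2 and 1, and 0 in place of 5 for batch, since most changes were smaller. Leaving out 1 library gave 7 to 8 calls in Ctr cells, 6 to 7 in αGlu cells, 5 to 6 for batch and 0 for αGlu against Ctr and for the difference between responses. These counts, and those of each batch alone, are given without the share of all genes called in the same fits. Whether the losses are particular to the 10 genes was not tested. The sign changed for Cd36 in Ctr cells in batch 1 alone (0.16), for Cd36 in αGlu cells in batch 2 alone (-0.48) and for Slc27a4 in Ctr cells without Ctr BSA library S9 (-0.0023, with up to 0.0795 when other libraries were left out), none of them called. The cause was not tested. Slc27a1 and Acsl6 lost their calls most often in Ctr cells. No paired analysis was made because the labels give no replicate number shared between groups and tie no library to an animal. The study states, however, that the groups of a replicate came from the same animal. Spread between animals within a batch thus stayed in the error of each fit. That can hide small differences, also in αGlu against Ctr and in the difference between responses. Values per principal transcript length and without S21 were chosen after seeing the data.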
